A study of Rattus norvegicus with 6 samples.

Results

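Transcripts of 8 genes of the renin-angiotensin system were examined in the renal cortex of male rats: Agt, Ace, Enpep, Mme, Agtr1a, Agtr1b, Mas1 and Atp6ap2. Probes were assigned to these genes through the transcript named for each probe on the array, and 7 of the 8 genes had at least 1 probe, 12 probes in all, among 31582 genes or sequences tested. Atp6ap2, which encodes the (pro)renin receptor, had no matched probe and was not analysed here. The Sprague-Dawley rats were bought at 5 weeks of age and treated for 4 weeks. The 3 rats of the control group received corn oil, and the 3 rats of the BBMP group received 1000 mg/kg/day of the brominated flame retardant 2,2-bis(bromomethyl)-1,3-propanediol. Each rat gave 1 cortex sample and 1 array read in a single colour (Cy3).

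The renin-angiotensin system is a cascade of peptide hormones that controls blood pressure and sodium balance. Agt encodes angiotensinogen, the precursor from which renin cuts angiotensin I. Angiotensin-converting enzyme turns angiotensin I into angiotensin II, the ligand of the type 1 receptors, and other peptidases shorten these peptides into products that act elsewhere or are inactive. The kidney holds a local form of the system, in which angiotensinogen is made in the proximal tubule and several of the peptidases sit on its brush border.

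Agt, Mme and Enpep are the members whose signals moved together from rat to rat, as described further on. The upstream windows of Mme and Enpep are shown, and no window was available for Agt. Mme and Enpep lie on the same chromosome, and their windows differ in composition. Each window holds the 250 bases before the gene's start in the RefSeq promoter table of build GRCr8, 5′ to 3′ on the gene's strand. It was searched on both strands for 5 short motifs, and matches are in capitals. These were the TATA box (TATAAA), the core that NF-Y binds (CCAAT), the core that SP factors bind (GGGCGG), a part of the HNF1 motif (GTTAAT) and the nuclear receptor core (AGGTCA). The first is at chr2:149872247-149872496 on the plus strand, and the other at chr2:220526219-220526468 on the minus strand.
Mme: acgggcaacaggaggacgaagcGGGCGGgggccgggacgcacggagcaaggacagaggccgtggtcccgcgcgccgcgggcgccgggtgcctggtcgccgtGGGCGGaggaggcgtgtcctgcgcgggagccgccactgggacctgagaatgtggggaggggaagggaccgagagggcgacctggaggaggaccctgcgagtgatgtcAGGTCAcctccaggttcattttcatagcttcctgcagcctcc
Enpep: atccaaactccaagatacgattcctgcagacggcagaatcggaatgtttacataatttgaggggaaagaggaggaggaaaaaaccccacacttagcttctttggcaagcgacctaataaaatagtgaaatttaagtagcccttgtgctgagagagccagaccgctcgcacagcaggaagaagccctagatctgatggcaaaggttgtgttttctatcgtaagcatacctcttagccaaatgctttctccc
The Mme window is 70.4% G or C. It holds GGGCGG at 228 and 149 bases before the start and AGGTCA at 42 bases. The Enpep window is 45.2% G or C and holds none of the 5 motifs. Among 33469 windows of the same length, GGGCGG occurred in 30.5% and AGGTCA in 14.1%, so the letters in the Mme window are common ones. The other motifs occurred in 12.9% (the TATA box), 34% (the NF-Y core) and 6.45% (the HNF1 part).

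All 12 probes were well above background on all 6 arrays and none was saturated. Signals are given as a ratio to the 75th percentile of the same array, so a value of 1 is the level of a probe brighter than 75% of probes, and differences are BBMP minus control on the log2 scale. Ratios of different genes are not compared, because probes differ in how brightly they report. For a gene with several probes the brightest one is used, and the others are given beside it. The 3 control arrays were hybridised on slide 1 and the 3 BBMP arrays on slide 2. A difference between the groups may therefore be one of treatment, of slide or of how each slide was processed, which cannot be told apart. Array 75th percentiles were 943 to 950 processed signal units in controls and 1245 to 1260 in BBMP rats, and 67.2% to 72.7% of probes were well above background.

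None of the 7 measured genes passed the test for a difference between BBMP and control rats. In limma's test, with Benjamini-Hochberg adjustment over all genes, 0 of 7 were higher and 0 lower at an adjusted p of 0.05, against 10.2% and 7.68% of all genes (17.9% in either direction). The share of higher among all calls was 57.1%, and 46.6% with cyclic loess, 36.4% with normexp and 35.9% with median scaling. An unadjusted p under 0.05 was reached by 0 of 7, against 36.6% of all genes. With every probe fitted on its own, 0 of 12 passed, against 17.8% of all probes. Control and BBMP rats overlapped for each of the 7 genes and each of the 12 probes, whereas the groups did not overlap for 43.6% of all genes (BBMP higher for 25%, lower for 18.6%). The differences were above 0 for 4 genes and below 0 for 3, with a median of 0.018 against 0.049 for all genes. The precision was uneven: the 95% interval of the difference was narrowest for Agtr1a and widest for Agt.

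**Figure D1:**
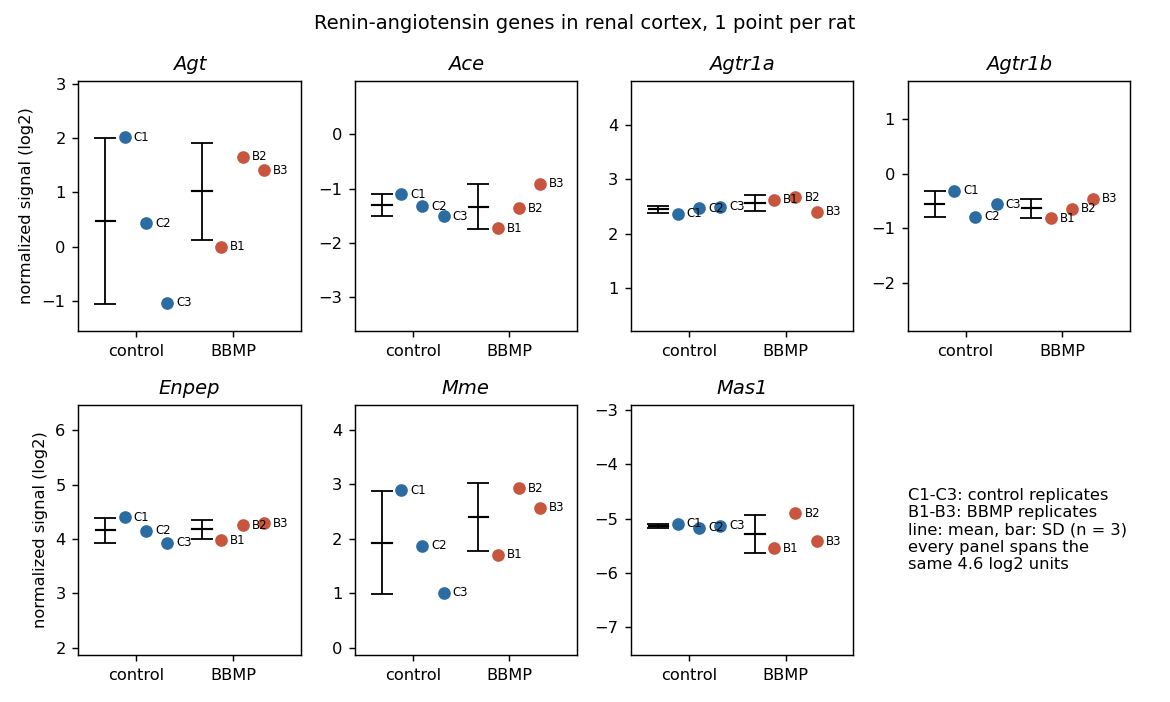
Normalized signal (log2 of the ratio to the array's 75th percentile) of the 7 measured genes in each rat, with control rats in blue and BBMP rats in red; the line is the mean and the bar the SD (n = 3). Control and BBMP rats overlap in every panel, and the points of Agt and Mme spread over a wider range than those of the other genes.

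Agt, the angiotensinogen gene, was the most variable member. Its ratio was 4.03, 1.35 and 0.490 in control rats 1 to 3 and 0.999, 3.14 and 2.66 in BBMP rats 1 to 3. The highest and the lowest rat were both controls and differed 8.23-fold, so the BBMP rats lay wholly inside the control range. On the log2 scale the mean was 0.47 ± 1.52 (SD, n = 3) in controls and 1.02 ± 0.89 (SD, n = 3) in BBMP rats. The difference of 0.55 ± 0.84 (SE) had an adjusted p of 0.675 by limma, and its 95% interval ran from -1.53 to 2.63, a fold between 0.346 and 6.19. A second probe for Agt gave 1.80, 0.591 and 0.193 in controls and 0.443, 1.41 and 1.23 in BBMP rats. Its rats stood in the same order as with the first probe, and its difference was 0.63 ± 0.88 (SE). Without control rat 3 the difference of the first probe was -0.20. The arrays of control rats 1 and 2 lay in row 2 of their slide and the other 4 in row 1 of theirs. With slide row as a block the difference was 2.05. That fit sets the 3 BBMP rats against control rat 3 alone, the only control in row 1 and the lowest rat. It is therefore no row-corrected estimate of the group difference.

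Mme encodes neprilysin, a membrane peptidase that cleaves angiotensin I and many other small peptides. Its ratio was 7.45, 3.67 and 2.02 in controls and 3.27, 7.62 and 5.97 in BBMP rats. Control rat 3 was lowest and BBMP rat 2 highest, with control rat 1 close to it, so each group had high and low rats. The log2 mean was 1.93 ± 0.94 (SD, n = 3) in controls and 2.41 ± 0.63 (SD, n = 3) in BBMP rats. The difference was 0.48 ± 0.54 (SE), with a 95% interval of -0.86 to 1.82 and an adjusted p of 0.564 by limma. With slide row as a block, which sets the BBMP rats against control rat 3 alone, it was 1.39. Without control rat 3 it was 0.020.

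Enpep encodes aminopeptidase A, which removes the first residue of angiotensin II to give angiotensin III. Its ratio was 21.1, 17.7 and 15.2 in controls and 15.8, 19.1 and 19.6 in BBMP rats, a 1.39-fold range over the 6 rats. Control rat 3 and BBMP rat 1 were again the low rats, but on a much smaller scale than for Agt. The difference was 0.018 ± 0.15 (SE), with a 95% interval of -0.35 to 0.38 and an adjusted p of 0.942 by limma. The other Enpep probe gave -0.095 ± 0.13 (SE). The sign of so small a difference turned in 7 of 21 alternative analyses, median scaling among them.

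Ace encodes angiotensin-converting enzyme, found in the brush border and on endothelium. Its ratio was 0.467, 0.400 and 0.352 in controls and 0.301, 0.390 and 0.532 in BBMP rats. BBMP rats 1 and 3 were the lowest and the highest of the 6, and the controls lay between them. The difference was -0.025 ± 0.23 (SE), with a 95% interval of -0.58 to 0.53 and an adjusted p of 0.948 by limma. The other 2 Ace probes gave -0.22 ± 0.33 and -0.25 ± 0.42 (SE), and neither passed the test.

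Agtr1a encodes the main type 1 angiotensin II receptor of the rodent kidney. Its ratio was 5.17, 5.54 and 5.64 in controls and 6.18, 6.37 and 5.30 in BBMP rats. BBMP rats 1 and 2 were above all controls, and BBMP rat 3 was below controls 2 and 3. The log2 mean was 2.44 ± 0.066 (SD, n = 3) in controls and 2.57 ± 0.14 (SD, n = 3) in BBMP rats. The difference of 0.12 ± 0.091 (SE) had an adjusted p of 0.369 by limma, and its 95% interval of -0.10 to 0.35 corresponds to a fold between 0.933 and 1.27. Agtr1a was thus the member for which the data set the tightest bound on a change.

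Agtr1b encodes the second rodent type 1 receptor, best known from the adrenal gland and pituitary. Its ratio was 0.808, 0.580 and 0.677 in controls and 0.569, 0.643 and 0.730 in BBMP rats, so the lowest and the highest rat belonged to different groups and the rest were mixed. The difference was -0.084 ± 0.15 (SE), with a 95% interval of -0.46 to 0.29 and an adjusted p of 0.724 by limma. A second Agtr1b probe gave -0.0050 ± 0.090 (SE). Because Agtr1a and Agtr1b are close paralogs, signal at one gene's probe may include the other's transcript, which was not tested. Markers of the adrenal gland were measured beside this gene, and 5 of 9 were tested. Cyp21a1 (adrenal steroid 21-hydroxylase) and Th (tyrosine hydroxylase) were higher in BBMP rats by 0.59 and 0.36 (adjusted p 0.0298 and 0.0168 by limma). These 2 of 5 stand against 10.2% of all genes called higher. For 4 of the 5 all BBMP rats were above all controls, against 25% of all genes. The widest difference was 0.81 for Hsd3b1, which did not pass (adjusted p 0.201 by limma). A second Th probe gave -0.46 and Cyp11b2 (aldosterone synthase) -0.29, and neither passed. Cyp11b2 was well above background in 1 control rat, the second Th probe in 2, and each in all 3 BBMP rats. Both therefore entered the test only through BBMP. The other 4 of the 5 markers were well above background on every array by their brightest probe. The shares of 10.2% and 25% also include genes that entered through a single group. The summed ratio of the 5 was 2.91 to 3.28 in controls and 4.002 to 4.334 in BBMP rats, while Cyp11b1, Star, Mc2r and Dbh were too dim to test. Their part in the Agtr1b values was not tested.

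Mas1 encodes the Mas receptor, which binds a heptapeptide made from angiotensin II or angiotensin I. Its ratio was 0.0293, 0.0279 and 0.0286 in controls and 0.0214, 0.0336 and 0.0235 in BBMP rats. The 3 controls were nearly equal, and BBMP rats lay on both sides of them. These signals were near the detection floor. The log2 mean was -5.13 in controls and -5.29 in BBMP rats, against -5.80 for the lowest signal well above background on the control arrays. The difference was -0.16 ± 0.17 (SE), with a 95% interval of -0.58 to 0.27 and an adjusted p of 0.553 by limma. With normexp background correction in place of the scanner's processed signal, Mas1 passed the test as lower (-0.30, adjusted p 0.0201), and this was the one alternative in which any member passed.

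**Figure D2:**
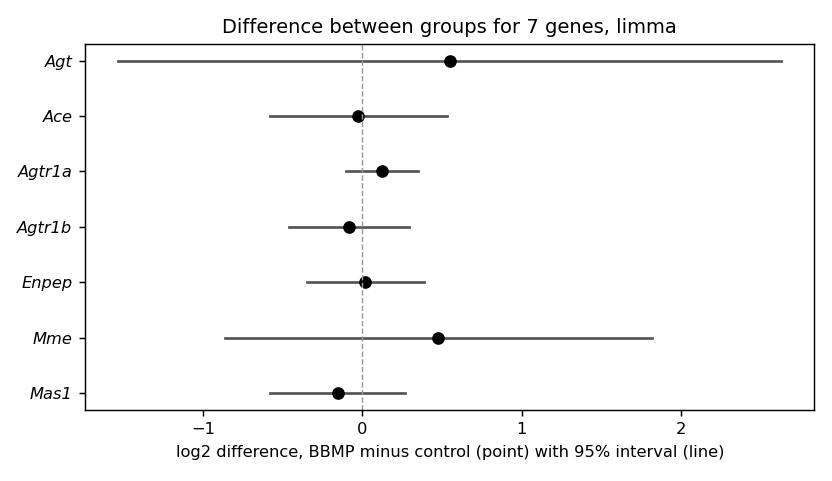
Log2 difference, BBMP minus control, of the 7 measured genes (point) with its 95% interval from limma (line). Every interval spans 0; the Agt interval runs from -1.53 to 2.63 and the Agtr1a interval from -0.10 to 0.35.

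The members differed widely in their spread between rats of one group. The SD between rats, pooled over both groups, was 1.25 for Agt, which is above 99.5% of the genes tested and ranks 49 of 11589 named genes above background on all arrays. For Mme it was 0.80, above 98.3% of genes and rank 152. The median of all genes was 0.13, and Agtr1a, with 0.11, lay below it. Between them were Ace with 0.32, Mas1 with 0.24, and Agtr1b and Enpep with 0.21 each. Relative to other genes, the angiotensinogen and neprilysin signals were therefore among the most uneven between rats of the same treatment, and the type 1 receptor signal was not.

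**Figure D3:**
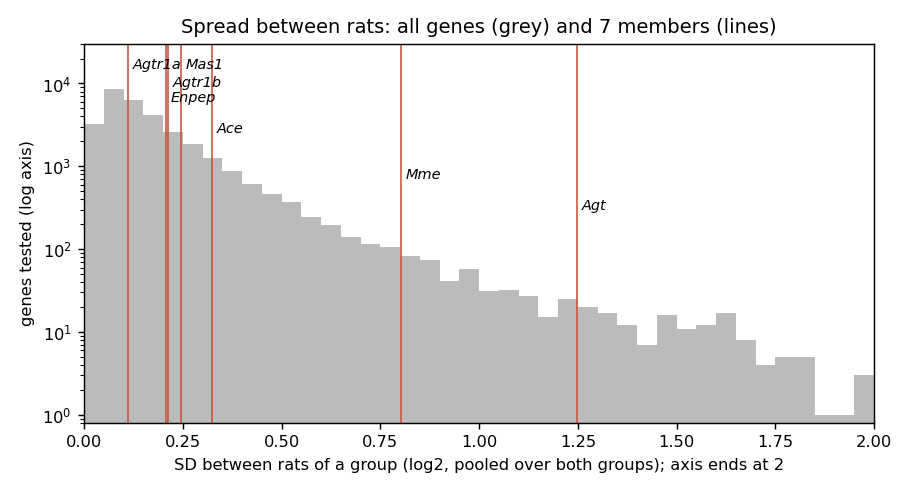
Number of genes tested (grey, log axis) by the SD between rats of a group on the log2 scale, with the 7 measured genes as red lines; the axis ends at 2, beyond which 26 genes lie. Agt (1.25) and Mme (0.80) lie in the right tail, and Agtr1a (0.11) is left of the all-gene median of 0.13.

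The rats ranked almost alike for Agt, Mme and Enpep. Control rat 1 was above control rat 2 and control rat 2 above control rat 3 for all 3 genes, and BBMP rat 1 was the lowest of its group for all 3. Ace shared both of these features on all 3 of its probes. By the brightest Ace probe BBMP rat 3 was the highest rat. By another, control rat 1 was slightly above BBMP rat 3 (0.134 against 0.132). The relation of Ace to Agt over all 6 rats was looser, as given further on. Over the 6 rats the log2 signals of Agt and Mme had a Pearson r of 0.992 (exact permutation p 0.00278, 0.0278 after Benjamini-Hochberg adjustment over 20 relations). Their Spearman rho was 0.943 (exact permutation p 0.0167, adjusted 0.0835), which missed the threshold. Agt and Enpep had r of 0.965 and rho of 0.943, with the same exact permutation p-values as Agt and Mme. Without the 2 rats farthest from the median of Agt, r was 0.986 for Mme and 0.933 for Enpep, and after centring each group on its own mean it was 0.995 and 0.986. Each slide holds 3 rats of 1 group, too few for a value within a slide. The smallest exact permutation p that 6 rats allow is 0.00139 for r and 0.00278 for rho. All 20 relations were computed after the spread of Agt had been seen in the same 6 rats, so their p-values are no independent support.

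The other members did not follow Agt past the threshold. Pearson r with Agt was 0.687 for Ace (exact permutation p 0.131, adjusted 0.374), 0.519 for Agtr1b (adjusted 0.722), 0.289 for Mas1 (adjusted 0.831) and -0.213 for Agtr1a (adjusted 0.831). With 6 rats, r of this size cannot be told from 0.

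Markers of the S3 segment, the straight last part of the proximal tubule, were set beside Agt. The amino acid carrier Slc7a13 had a ratio of 61.9, 14.4 and 8.26 in controls and 14.2, 42.3 and 30.8 in BBMP rats. These 6 rats stood in the same order as for Agt, with r of 0.977 (exact permutation p 0.00417, adjusted 0.0278) and rho of 1 (exact permutation p 0.00278, adjusted 0.0556), p-values that describe a likeness already seen. Slc22a7, an organic anion carrier, had r of 0.911 (adjusted 0.132) and Slc3a1, an amino acid carrier subunit, 0.816 (adjusted 0.178), while Slc5a1 (0.362) and Acy3 (0.107) were lower. By its brightest probe none of the 5 S3 markers was called between groups (the widest difference was 0.48 for Slc22a7), while a second Slc5a1 probe was higher in BBMP rats by 0.75 (adjusted p 0.0203 by limma over all probes). Their summed ratio was 437 to 543 in controls and 463 to 598 in BBMP rats. None of the 9 markers of the proximal tubule as a whole followed Agt past the threshold, with r from -0.745 for Slc5a2 to 0.320 for Lrp2. All 9 were above background on every array and none was called between groups, with the widest difference -0.23 for the bicarbonate carrier Slc4a4. In a bulk sample, fewer cells of a type and less RNA per cell cannot be told apart, and the part of the S3 segment's share of each sample in the Agt, Mme and Enpep values was not tested.

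**Figure D4:**
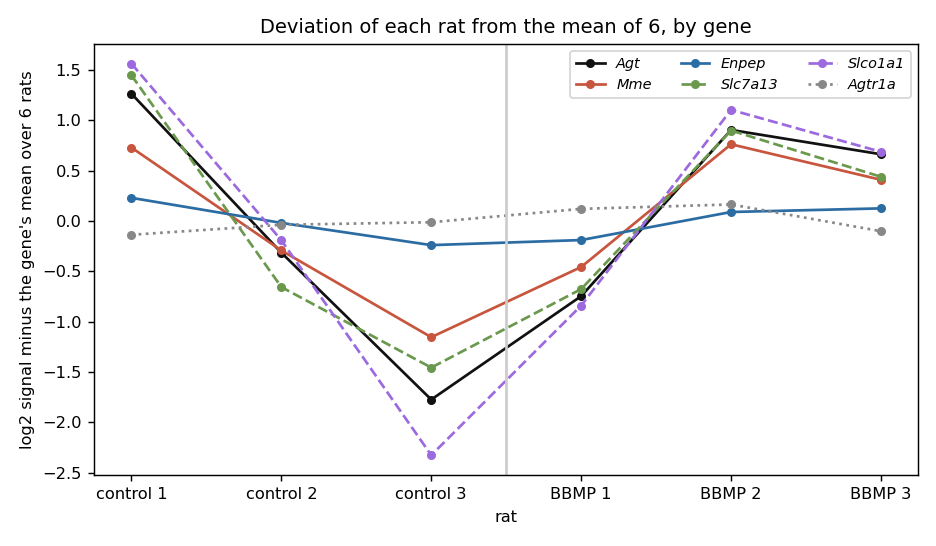
Log2 signal of 6 genes in each rat minus the gene's mean over the 6 rats; control rats are left of the grey line and BBMP rats right of it. Agt, Mme, Slc7a13 and Slco1a1 rise and fall together with control rat 3 and BBMP rat 1 low, Enpep follows on a smaller scale, and Agtr1a stays near 0.

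Among 11588 other named genes above background on all 6 arrays, the 3 whose log2 signal was most like that of Agt over the 6 rats were Slco1a1, Aspg and Gclc. Slco1a1, an organic anion uptake carrier, had r of 0.996 with ratios of 4.09, 1.21 and 0.275 in controls and 0.772, 2.97 and 2.23 in BBMP rats. Aspg, an asparaginase, had r of 0.995 with ratios of 10.2, 4.30 and 1.79 in controls and 3.83, 8.72 and 7.94 in BBMP rats. Gclc, the catalytic subunit of the first enzyme of glutathione synthesis, had r of 0.994 with ratios of 117, 45.0 and 18.1 in controls and 37.1, 84.6 and 70.4 in BBMP rats. All 3 had control rat 1 highest and control rat 3 lowest, as Agt did. In all, 53 of the 11588 genes (0.457%) had r above 0.95 and 17 below -0.95. These genes were picked for their likeness, so r is a description with no test.

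Of 14 other genes of the pathway, 13 had a probe and 9 could be tested. The angiotensin type 2 receptor Agtr2 and the mast cell and neutrophil proteases Cma1, Ctsg and Cpa3 were too dim, and Lnpep was not matched. Of the 9, 1 was higher in BBMP rats, 0 were lower and 5 had groups that did not overlap, with a median difference of -0.084 against 0.049 for all genes. Over all genes 10.2% were higher, 7.68% lower and 43.6% not overlapping, so these counts are near the background. The 1 call was Thop1, thimet oligopeptidase, which cleaves angiotensin I. Its ratio was 3.01, 3.01 and 2.93 in controls and 3.597, 4.074 and 3.878 in BBMP rats, and the difference was 0.37 ± 0.068 (SE; adjusted p 0.0231 by limma), a 1.29-fold rise. A second Thop1 probe gave 0.19 and did not pass (adjusted p 0.105). When any one of the 6 rats was left out Thop1 missed the threshold, with adjusted p between 0.0516 and 0.072. The brightest probe of Agtrap, the type 1 receptor-associated protein gene, gave 0.12 and did not pass (adjusted p 0.213 by limma). A second Agtrap probe was higher in BBMP rats by 0.26 (adjusted p 0.0489 by limma over all probes).

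Anpep encodes aminopeptidase N, the next enzyme after aminopeptidase A, and is described after its values were seen, as the widest difference among these 9 genes. Its ratio was 13.5, 17.1 and 15.3 in controls and 19.97, 30.52 and 22.58 in BBMP rats, so all BBMP rats were above all controls. The difference was 0.66 ± 0.18 (SE), and it missed the threshold with an adjusted p of 0.056 by limma. The 2 aminopeptidases that act in turn on angiotensin II and III thus had differences of 0.018 (Enpep) and 0.66 (Anpep), neither of them called, and the gap between them was not tested. Prep, prolyl endopeptidase, was among the uneven genes like Agt, with ratios of 15.2, 6.81 and 6.23 in controls and 5.29, 11.9 and 7.67 in BBMP rats.

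Kinin and natriuretic peptide genes share peptidases such as neprilysin with the angiotensins. Of 13 listed, 12 could be tested. By the brightest probe of each gene 1 was higher, 0 were lower and 3 had groups that did not overlap, and the median difference was 0.099. Both the 1 of 12 called and the 3 of 12 not overlapping are below the shares over all genes (17.9% and 43.6%). A second probe of the bradykinin receptor gene Bdkrb2 had a difference of -0.38 (adjusted p 0.016 by limma over all probes). The brightest Bdkrb2 probe gave 0.15 (adjusted p 0.352 by limma). The 1 call was Npr1, the guanylyl cyclase receptor of atrial natriuretic peptide. Its ratio was 4.04, 3.84 and 4.10 in controls and 5.44, 4.83 and 5.29 in BBMP rats, with a difference of 0.38 ± 0.071 (SE; adjusted p 0.024 by limma). Npr1 kept its call without control rat 3 (adjusted p 0.0473) and missed the threshold when any of the other rats was left out (0.0555 to 0.0756). The kininogen genes Kng1 and Kng2, substrates of the kinin branch as Agt is of the angiotensin branch, were also uneven between rats, with 8.20-fold and 9.80-fold ranges. For both genes control rat 1 was the highest of the 6.

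Of 10 other hydrolases listed as brush border genes, most of them peptidases, all 10 were tested. Of these, 1 was higher, 1 lower and 3 had groups that did not overlap, with a median difference of 0.17. The 2 of 10 called are near the 17.9% over all genes, and the 3 of 10 not overlapping are below the 43.6%. Xpnpep2, aminopeptidase P, which acts on bradykinin, had a ratio of 1.95, 2.07 and 2.16 in controls and 2.55, 2.67 and 2.49 in BBMP rats, and a difference of 0.32 ± 0.067 (SE; adjusted p 0.0302 by limma). Folh1, glutamate carboxypeptidase II, had a ratio of 8.69, 9.37 and 9.32 in controls and 6.84, 6.27 and 6.75 in BBMP rats. It fell by 0.46 ± 0.067 (SE; adjusted p 0.0154 by limma), and its second probe also fell, by 0.33 (adjusted p 0.0381). Folh1 missed the threshold without control rat 2 (0.0518), BBMP rat 1 (0.0515) or BBMP rat 2 (0.0562). Xpnpep2 kept its call without control rat 3 (0.0457) and missed the threshold when any of the other rats was left out (0.0692 to 0.0917). Mep1b, a meprin subunit, resembled Agt in its unevenness, with ratios of 16.1, 7.10 and 1.73 in controls and 5.51, 17.5 and 10.8 in BBMP rats.

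Genes of the juxtaglomerular cells and the macula densa, where renin release is controlled, had 8 of 10 with a probe and 6 tested. Of these, 5 were well above background on all 6 arrays, and with that filter 1 was higher and 0 lower, against 17.9% called over all genes in the main test. Gja5, the gap junction protein connexin 40 of renin cells and arteriolar endothelium, had a ratio of 0.956, 0.832 and 0.787 in controls and 1.15, 1.04 and 1.26 in BBMP rats. The difference was 0.42 ± 0.11 (SE; adjusted p 0.0487 by limma), a second probe gave 0.21 (adjusted p 0.303), and the call was lost when any one of the 6 rats was left out (adjusted p 0.0586 to 0.122). Adora1, an adenosine receptor of the macula densa feedback, was well above background in all 3 BBMP rats and in no control rat, so it entered the test only through BBMP and its p gives no support. The BBMP mean was at least 1.42-fold the lowest signal well above background on the control arrays. With normexp its difference was -0.11.

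Markers of other cells that carry these genes moved in both directions. At most 1 marker was called in each list below of 4 to 7 tested, against 17.9% of all genes. The adrenal list given beside Agtr1b had 2 of 5 called. The called markers below had adjusted p from 0.0158 (Cdh5) to 0.0378 (Upk1b) by limma. Marker calls are given for the full set of 6 rats, and without BBMP rat 2 only 3 of all genes tested were called. Podocytes carry neprilysin and aminopeptidase A as well. Of 5 podocyte markers tested Synpo (synaptopodin) was higher in BBMP rats by 0.40, while the other 4 had differences below 0, down to -0.28 for Podxl, and none of those passed. The summed ratio of the 5 was 23.4 to 28.8 in controls and 19.4 to 24.6 in BBMP rats. Vessel walls carry angiotensin-converting enzyme and type 1 receptors. Of 7 endothelial markers tested Cdh5 (VE-cadherin) was higher by 0.51, and 3 had differences below 0, down to -0.34 for Pecam1, which did not pass and whose second probe gave 0.31. The summed ratio of the 7 was 79.7 to 95.3 in controls and 78.2 to 92.2 in BBMP rats. Of 6 smooth muscle, mesangial and pericyte markers tested Des (desmin) was higher by 0.44, and 3 had differences below 0, down to -0.24 for Pdgfrb, which did not pass. The median of the 6 was 0.028, and their summed ratio was 4.31 to 4.63 in controls and 4.48 to 4.57 in BBMP rats. Among leukocyte markers Csf1r was higher by 0.42 (1 of 7 tested), and among medulla and urothelium markers Upk1b by 0.69 (1 of 5 tested). None of the 4 adipocyte markers tested was called, and the widest difference was 0.81 for Cidec. The part of these cells in the members' values was not tested.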

How the data were processed

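Total RNA of 6 rat renal cortex samples, 3 control and 3 BBMP, was hybridised to one-colour Agilent arrays. Feature Extraction 10.7.1.1, per the file headers (10.7 per the submitters' processing notes), wrote for each spot the deposited intensity: a raw median signal, its local background and a processed signal with background removed within the array. It also wrote flags of 0 or 1, kept here as the deposited score of detection and saturation. The authors' deposited series table holds a linear ratio of each probe to its array; it differed from processed signal over the array's 75th percentile by a median of 0.000156 to 0.00157 on the log2 scale, but its columns carry the values of other rats of the same group than the scanner files do. It served only as an alternative, and rats are numbered as the scanner files' labels number them. The number of arrays limits the precision.

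From 61657 non-control probes, 84 ERCC spike-in probes and 10 with outlier flags were left out. The processed signal over the 75th percentile of its array, as log2, was tested for 42657 probes well above background on all 3 arrays of a group. The brightest probe stood for a gene, and 31582 genes or sequences were compared with limma 3.58.1 (lmFit, eBayes, two-sided, no covariates) in R 4.3.3, with Benjamini-Hochberg adjustment and a threshold of 0.05; all probes were also fitted. Gene names came from RefSeq transcript names in the files: 12077 of 31582 were named. The procedure was tested on simulated data. Correlations were tested by exact permutation of 6 rats, two-sided. Replicates are separate animals.

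Every member and probe is reported. From other lists the genes that passed are named or, in a list with none, those with the widest difference. Genes named outside that rule were chosen after their values were seen. They are Anpep, Prep, Kng1, Kng2, Mep1b, Bdkrb2, Agtrap and markers whose values are given beside a called one. Some genes of the lists are not reported here and count in no list. Members and lists were chosen with earlier results of these data known. Same-numbered control and BBMP rats did not deviate together, so numbers were not used as pairs. Alternatives covered background correction, scaling, dim-probe filters, probe choice, slide row, moderation, array weights and leaving out each rat; keeping the spike-in probes was added after seeing the data.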

Additional observations from a re-analysis of the deposited data

How the results depend on the processing

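Over 21 alternatives no member passed as higher, and Mas1 passed as lower with normexp (1 gene, -0.30, adjusted p 0.0201); of 147 member differences 133 kept direction and side, 13 turned sign and 1 passed. The sign turned for Ace with slide row as a block (0.17) and without control replicate 1 (0.080) or BBMP replicate 1 (0.17), for Agt without control replicate 3 (-0.20), and for Agtr1b without control replicate 1 (0.039) or BBMP replicate 1 (0.0055). For Enpep it turned with normexp (-0.0017), median scaling (-0.057), the mean of probes (-0.039) and array weights (-0.0011), and without control replicate 3 (-0.097), BBMP replicate 2 (-0.023) or BBMP replicate 3 (-0.041). The differences ranged from -0.20 to 2.05 for Agt and from 0.020 to 1.39 for Mme, with the upper ends from slide row as a block. For every gene that setting compares the BBMP rats with control rat 3 alone, the only control in row 1. Leaving out 1 rat gave -0.24 to 0.17 for Ace, -0.20 to 1.32 for Agt, -0.20 to 0.039 for Agtr1b, -0.097 to 0.14 for Enpep, -0.35 (without BBMP replicate 2) to -0.024 (without BBMP replicate 1) for Mas1, 0.072 to 0.20 for Agtr1a and 0.020 to 0.96 for Mme. The cause of the changes under the other settings was not tested.

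Calls in the other lists moved more. With the replicate block, 0 genes of any list and 0 of all genes passed. The numbers do not pair the rats (correlations of deviations -0.12, -0.082 and -0.068). Slide row as a block leaves 1 control in the comparison, so its calls are not counted here. Other pathway genes higher numbered 1, and 2 with normexp, with the filter on all 6 arrays or with trend and robust moderation; those lower numbered 0, and 1 with median scaling or no filter. Kinin and natriuretic genes higher numbered 1, 2 with normexp and 3 with trend and robust moderation, and those lower 0, and 1 with normexp. Listed brush border hydrolases higher numbered 1, and 0 with normexp, median scaling or no filter. Those lower numbered 1, and 2 with normexp or trend and robust moderation. Juxtaglomerular and macula densa genes higher numbered 2 (Gja5, and Adora1, tested only through the BBMP arrays), and 1 with normexp, quantile, cyclic loess, median scaling, no filter, the filter on all 6 arrays, the mean of probes or no moderation. Leaving out 1 rat gave no call in either direction for other pathway genes, and 0 to 1 in each direction for the brush border list. For the kinin and natriuretic list and the juxtaglomerular and macula densa list it gave 0 to 1 higher and 0 lower. Over all genes, 3232 higher and 2427 lower calls became 3 and 0 without BBMP replicate 2, 2102 and 3749 under median scaling (35.9% of calls higher, against 57.1%), and 2918 and 5096 under normexp (36.4%). The median difference of all genes was 0.049; it was -0.026 under median scaling and -0.062 under normexp. With 3 rats a group, changes within the stated intervals were not excluded, and the intervals for Agt and Mme are wide.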
